A study of Mus musculus with 35 samples.

Results

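The genes described here were induced when mouse embryonic stem (ES) cells were driven towards primitive endoderm (PrE) for 168 h, but stood at least 4-fold lower in XEN cells, an established line of extra-embryonic endoderm. They were chosen on group mean TPM, the abundance of a gene's transcripts relative to all others in a library, corrected for length and brought to a common total. A gene was a member when its 168 h mean reached 10 TPM, its 168 h mean plus 1 was at least 4 times its 0 h mean plus 1, and the same sum was at least 4 times its XEN mean plus 1. Of 44853 genes, 1063 met the first pair of conditions, and 89 of these also met the last. The remaining 974, induced at 168 h and within 4-fold of or above the 168 h level in XEN cells, are used for comparison and are called the shared induced genes. Since the 0 h, 168 h and XEN libraries chose the members, contrasts among those libraries are given below as descriptions with no test.

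A pair of RNA-seq series were used. In the induction series, KH2 ES cells (C57BL/6 x 129/Sv) with a cassette that expresses Gata6 in the presence of doxycycline (Dox) were collected in 7 groups of 3 libraries each. These were untreated cells (0 h) and cells that had received Dox (1 µg/mL) for 16, 24, 48, 72, 96 or 168 h. The reference was X10, a wild-type XEN line of CD1 background that received no treatment, with 2 libraries. In the siRNA series, the same inducible ES cells received control siRNA (siCTL) or siRNA against Oct4 (siOct4), the product of Pou5f1, and were collected after 48 h of Dox, with 6 libraries per group. All cells grew with fibroblast feeders. The paper states that these were removed by adsorption before lysis for the inducible ES cells, and does not say so for XEN cells. ES medium held LIF and XEN medium did not. Inducible cells were made from a single parental line, and the siRNA experiments used 1 clone of it. Cell line, strain background, Dox and LIF all separate the 168 h libraries from the XEN libraries, and their parts in the difference cannot be told apart. In bulk RNA, fewer cells that express a gene and less of its RNA per cell cannot be told apart either.

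PrE arises in the late blastocyst, where the transcription factor GATA6 directs it away from the epiblast. Its descendants are visceral endoderm, an absorptive epithelium around the embryo that takes up maternal protein and lipid through large endocytic receptors, and parietal endoderm, migratory cells that lay down a thick basement membrane rich in laminin and type IV collagen. XEN lines are derived from PrE and in culture are known to resemble parietal more than visceral endoderm. Oct4 is a pluripotency factor that is also known to be needed for PrE formation.

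Few of these genes were absent from XEN cells, so they are described as lower there and not as lacking. In XEN cells 16 of the 89 averaged under 1 TPM, and the median member stood at 4.85 TPM there against 56.1 TPM at 168 h. The ratio of the 168 h level to the XEN level, with 1 added to each, ran from 4.06 to 131.4 with a median of 6.75. The most abundant member, Col4a1, was still at 1130.1 and 1156 TPM in XEN cells. In 30 members the XEN mean lay below even the uninduced 0 h mean. For 88 of 89 members each 168 h library was above each XEN library, the exception being Ttr. By annotation 87 members were protein coding, and the other two were the long noncoding RNA Gm42208 and the processed pseudogene 2210409E12Rik. The pseudogene shares sequence with a parent gene, so its reads are uncertain.

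Of the marker lists examined, the visceral endoderm list held the largest number of members, and it was also the longest of the cell type lists. Of 34 visceral endoderm genes, 11 were induced at 168 h and 6 of those were members, namely Ttr, Amn, Cubn, Lrp2, Ihh and S100g. Of 13 parietal endoderm genes, 12 were induced and only Col4a1 and Col4a2 were members. Of 20 fibroblast genes, which could come from feeders, 1 was a member, Col3a1. None was a definitive endoderm (12 genes), mesoderm (12), smooth muscle (11), trophoblast (12), primitive erythroid (10), endothelial (9), macrophage (6) or neural (8) marker. Igf2 was the only member among 26 imprinted genes, Ttr the only one among 23 plasma proteins, and Ihh, Vegfa, Wnt11 and Igf2 came from 16 secreted endoderm signals. Lists of 14 apolipoprotein, 15 retinoid, 19 MHC class I and interferon, and 39 Hox genes held no member.

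**Figure D1:**
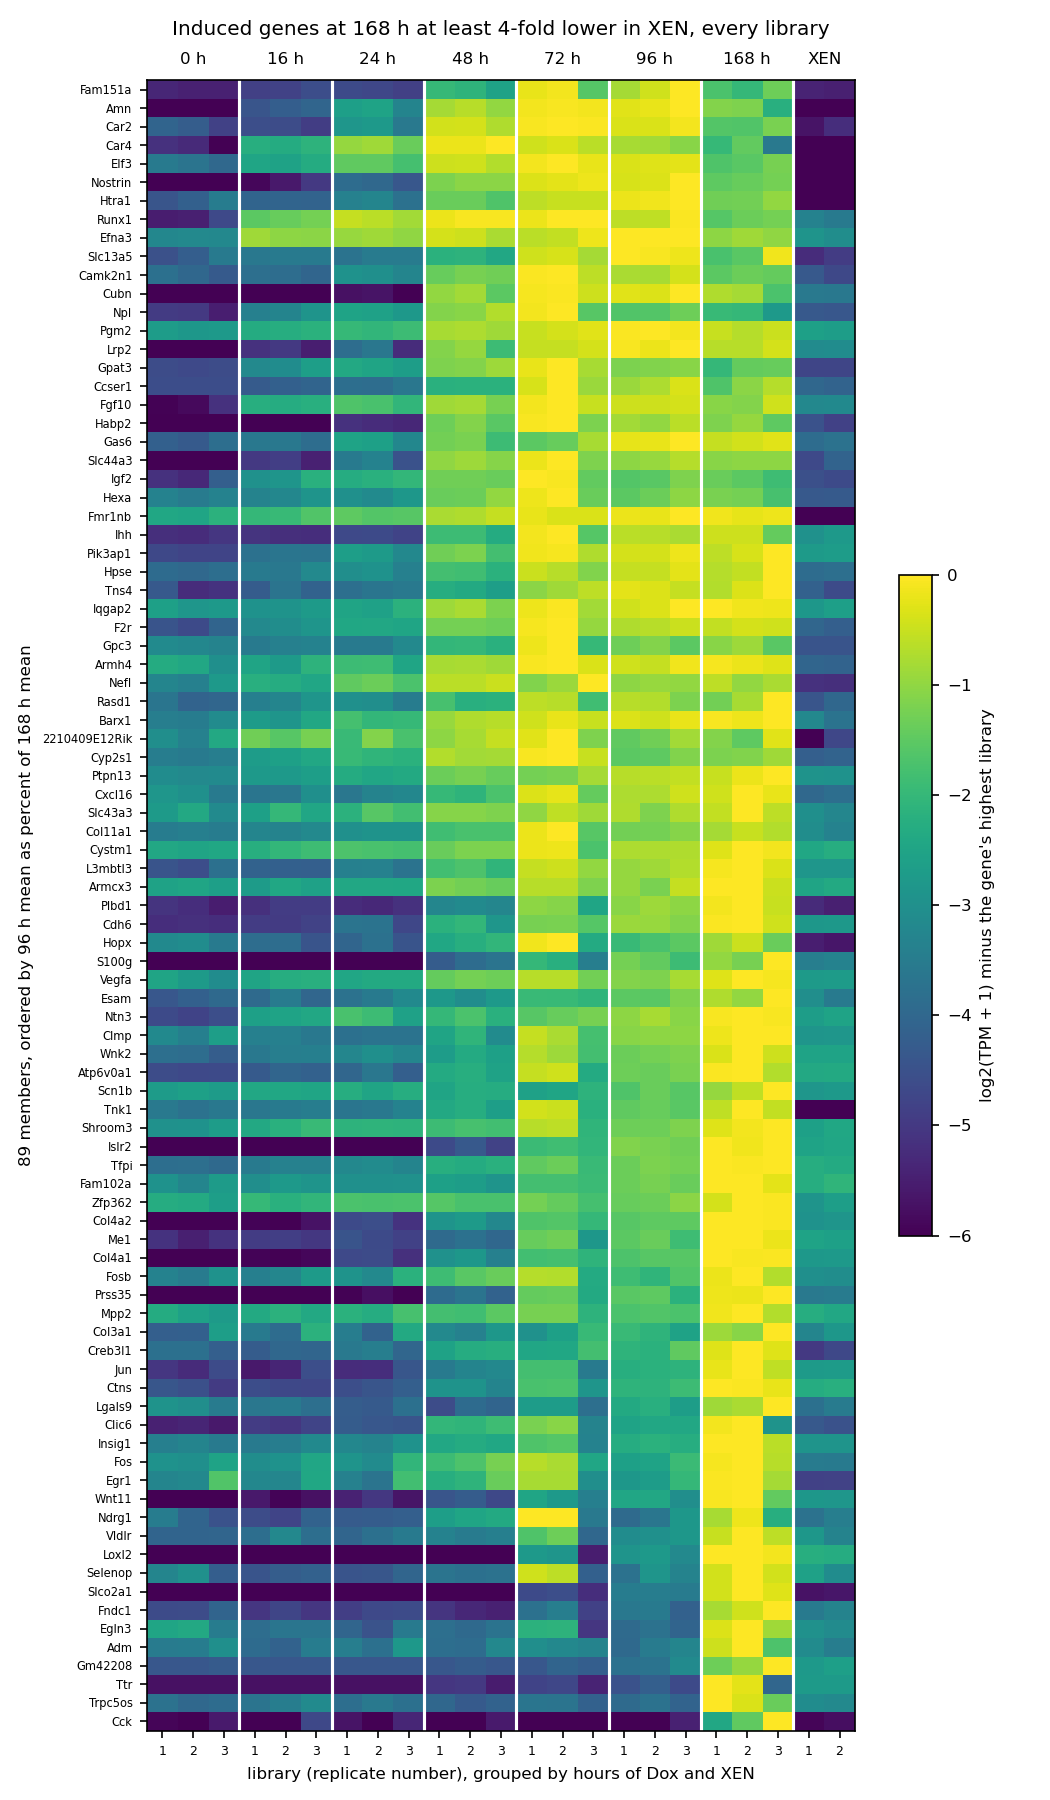
Level of the 89 members in each of the 23 induction libraries, with columns grouped by hours of Dox and by XEN cells and rows ordered by the 96 h mean as a percent of the 168 h mean. Colour is log2(TPM + 1) minus the gene's highest library, with the lowest values sharing the darkest colour, and shows the early-peaking members at the top, the late ones at the bottom and the darker 72 h replicate 3.

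Libraries of a group were not equally alike. The summed TPM of the fibroblast list without Col3a1 was 206, 216 and 393 in 168 h replicates 1, 2 and 3, 344 and 363 in the XEN libraries and between 88.3 and 210.2 at 0 h. Replicates 1 and 2 of a group lay closer together (median absolute difference 0.0941 to 0.130 on the log2 scale across genes) than replicate 3 lay to either (0.123 to 0.308). Replicate 3 at 72 h stood furthest apart in the members and is described below, as is replicate 3 at 168 h. Between siRNA libraries of a group the same difference ran from 0.119 to 0.809. Some consecutive libraries were the closest, at 0.119 for siCTL 1 and 2, 0.149 for siOct4 5 and 6 and 0.157 for siCTL 5 and 6. Others were not, at 0.320 for siOct4 1 and 2, 0.333 for siOct4 3 and 4 and 0.809 for siCTL 3 and 4. Pou5f1, the target of the siRNA, was at a lowest, median and highest of 782, 895 and 1194 TPM in siCTL and 282, 314 and 387 TPM in siOct4, with no overlap.

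Of the endocytic machinery of visceral endoderm, Cubn and Lrp2 were among the 12 most abundant members at 168 h, while Amn, at a mean of 135 TPM, was not. Cubilin (Cubn, chr2:13276338-13491813, minus strand) is a large multiligand receptor of absorptive epithelia, amnionless (Amn, chr12:111271095-111276426, plus strand) is the membrane partner that carries it to the cell surface, and megalin (Lrp2, chr2:69424340-69586065, minus strand) is a receptor of the LDL receptor family that works with both. These and the positions below are gene spans in mm10. Cubn was listed at 0.0812, 0.0812 and 0.0406 TPM at 0 h, 1.01, 1.19 and 1.67 at 16 h, 11, 11.4 and 4.48 at 24 h, 320.2, 354 and 221 at 48 h, 597, 617 and 463 at 72 h, 527, 508 and 633 at 96 h, 387, 359 and 194 at 168 h and 52 and 51 in XEN cells. It thus peaked at 72 to 96 h, and its 168 h libraries all lay below those at 96 h while staying above XEN. Amn went from 3.47, 2.41 and 3.94 TPM at 0 h through 16, 18.8 and 21.3 at 16 h, 58.3, 62.7 and 36.3 at 24 h, 208, 231 and 184 at 48 h, 339, 348 and 336 at 72 h, and reached 299.6, 315 and 363 TPM at 96 h. It then read 166, 161 and 78 TPM at 168 h, against 0.556 and 0.263 in XEN cells. Its XEN level was below that of untreated ES cells, and its 168 h ratio to XEN was 96.6. Lrp2 stood at 4.24, 4.27 and 2.31 TPM at 0 h, 194, 217 and 111 at 48 h, 400.2, 370.3 and 417 at 96 h, 266, 268 and 316 at 168 h and 47.5 and 48.4 in XEN cells. Between 16 and 96 h, libraries that had no part in choosing the members, all 3 rose, by 7.93 ± 0.27 (SE, adjusted p = 5.20e-11) on the log2(TPM + 1) scale for Cubn, 4.06 ± 0.17 (SE, adjusted p = 2.56e-10) for Amn and 5.14 ± 0.34 (SE, adjusted p = 1.64e-08) for Lrp2. Vldlr, a lipoprotein receptor of the same family, differed from them. Its 96 h level was 13.6% of that at 168 h, and its change from 16 to 96 h was 0.66 ± 0.49 (SE, adjusted p = 0.26), short of a call.

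The 250 bases before the RefSeq start site (GRCm38.p6, the mm10 assembly, 5′ to 3′ on the strand of the gene) are printed for Cubn, Amn and Nostrin, which fell under Oct4 siRNA, and for S100g, which rose there. For GATA factors the letters searched, on either strand, were AGATAA and, as a second form, TGATAA. For SOX factors they were CATTGT, and for forkhead (FOX) factors they were TGTTTAC. Matches are in capitals.
Cubn (chr2:13491877-13492126, minus strand): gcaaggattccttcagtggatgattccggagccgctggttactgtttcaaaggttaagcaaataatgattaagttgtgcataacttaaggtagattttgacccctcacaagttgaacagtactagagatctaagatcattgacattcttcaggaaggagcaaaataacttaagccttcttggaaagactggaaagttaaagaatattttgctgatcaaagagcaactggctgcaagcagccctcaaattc
Amn (chr12:111270846-111271095, plus strand): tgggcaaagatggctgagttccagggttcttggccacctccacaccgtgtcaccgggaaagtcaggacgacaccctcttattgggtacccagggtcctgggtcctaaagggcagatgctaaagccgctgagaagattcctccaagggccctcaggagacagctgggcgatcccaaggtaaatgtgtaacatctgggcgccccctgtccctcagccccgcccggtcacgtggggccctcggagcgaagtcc
Nostrin (chr2:69135550-69135799, plus strand): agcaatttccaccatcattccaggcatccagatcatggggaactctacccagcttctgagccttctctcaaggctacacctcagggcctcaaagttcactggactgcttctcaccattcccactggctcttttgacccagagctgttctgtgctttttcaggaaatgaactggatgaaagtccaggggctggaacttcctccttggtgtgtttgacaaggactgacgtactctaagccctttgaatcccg
S100g (chrX:162964600-162964849, minus strand): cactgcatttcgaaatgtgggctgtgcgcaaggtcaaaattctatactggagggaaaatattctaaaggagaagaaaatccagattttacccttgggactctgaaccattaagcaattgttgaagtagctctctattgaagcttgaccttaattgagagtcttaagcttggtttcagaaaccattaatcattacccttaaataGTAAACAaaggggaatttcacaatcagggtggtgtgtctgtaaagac
S100g alone of these windows held a match, GTAAACA, the reverse complement of the FOX letters, starting 47 bases before the start site. Of 89 members, 69 matched a RefSeq promoter. The 250 bases before the start of each promoter were searched with the same letters. Those for GATA were in 5.56% of the members' 90 promoters, against 16.6% of all 32851 promoters. The SOX letters were in 6.67% against 10.7%, and the FOX letters in 6.67% against 3.17%. Among shared induced genes the shares were 9.02% for GATA, 6.58% for SOX and 2.54% for FOX. The letters describe these windows only.

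Basement membrane genes held the highest levels. Col4a1 and Col4a2 encode the chains of the most common type IV collagen and lie head to head on chromosome 8, the annotated spans overlapping by 22 bases on opposite strands. Col4a1 was at 10.4, 11.2 and 12 TPM at 0 h, 1004, 1117 and 759 at 48 h, 2462, 2669.9 and 2663 at 96 h, 7905, 7559 and 7654 at 168 h and 1130.1 and 1156 in XEN cells. Col4a2 followed at 5.45, 4.04 and 7.88, 523, 585 and 417, 1313, 1380.2 and 1395, 3898, 3862 and 3789 and 507 and 528 TPM in the same groups. Both collagens were thus abundant in XEN cells and are members by ratio. Loxl2, a lysyl oxidase that crosslinks collagen, was late. It stood at 5.2, 5.54 and 6.6 TPM at 48 h, 91, 84.2 and 12.7 at 72 h, 83.4, 90.5 and 68 at 96 h, 626, 624.8 and 578 at 168 h and 133 and 127 in XEN cells.

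Htra1, a secreted serine protease, was among the members with the highest ratios to XEN. Its libraries read 29.2, 35.1 and 56.1 TPM at 0 h, 246, 248 and 203 at 48 h, 569, 583 and 640.5 at 96 h, 259, 266 and 325 at 168 h and 1.96 and 1.8 in XEN cells. Its 168 h libraries were all below its 96 h libraries and its XEN libraries all below its 0 h libraries. Of the 9 matrix genes grouped here (Col4a1, Col4a2, Col3a1, Col11a1, Loxl2, Htra1, the fibronectin-domain gene Fndc1, the heparan sulphate cleaving enzyme Hpse and the heparan sulphate proteoglycan Gpc3), 8 rose between 16 and 96 h and 7 between 48 and 72 h. Over all genes tested the shares were 13.7% and 2.08%, and over the members 71 and 31 of 88. Col3a1, the fibroblast marker, did not pass the first test (1.01 ± 0.46 (SE, adjusted p = 0.0703)). At 168 h it was at 37.7, 32.7 and 70.1 TPM, highest in the replicate whose fibroblast sum was also highest, and the part of feeder RNA in it was not tested. These role groups were drawn up after the values had been seen.

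**Figure D2:**
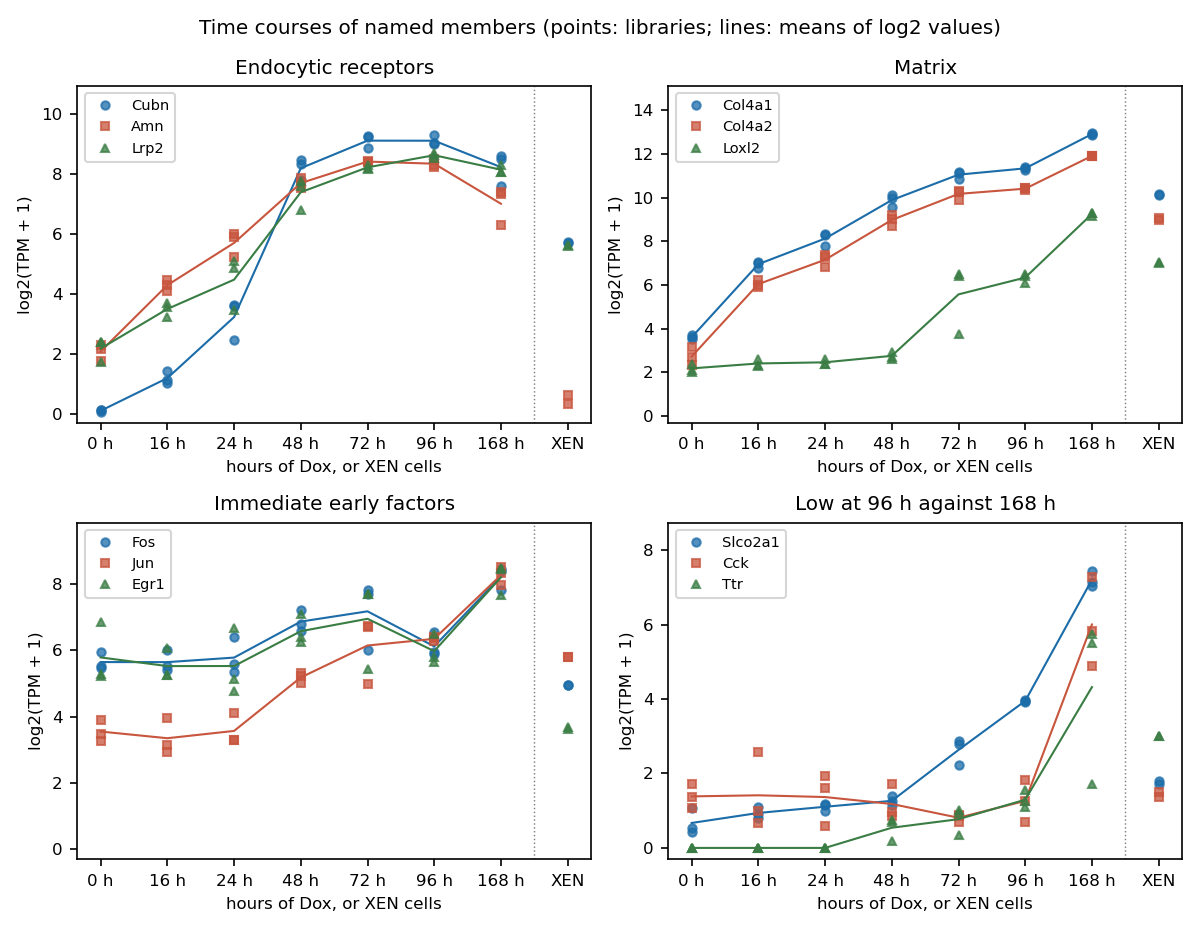
Level on a log2(TPM + 1) scale of 12 named members by hours of Dox and in XEN cells, with points for libraries and lines through the mean of the log2 values at each time. Cubn and Amn were highest at 72 to 96 h, Lrp2 at 96 h, and Col4a1, Col4a2, Loxl2, Slco2a1, Cck and Ttr at 168 h.

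Immediate early transcription factors, which respond within minutes to growth factors and to stress such as cell handling, were present before Dox and highest at 168 h. Fos was at 44.7, 43.1 and 61 TPM at 0 h, 224, 207 and 63.2 at 72 h, 57.7, 60.1 and 92.2 at 96 h, 334, 352 and 226 at 168 h and 30.2 and 29.8 in XEN cells. Jun read 10.1, 8.62 and 13.9, 104, 104 and 30.9, 76.3, 81.1 and 83.5, 319, 366 and 247 and 54.5 and 54.9 TPM in these groups. Egr1 read 36.1, 37.7 and 115, 207, 206 and 42.7, 49.1, 54.5 and 88.1, 346, 357 and 203 and 11.4 and 11.8 TPM, so that at 0 h its replicates already spanned a wide range. The levels were not steady, since Fos and Egr1 were lower at 96 h than in 72 h replicates 1 and 2. Of the 4 genes of this kind, Jun (6.63, 7.79 and 14.7 TPM at 16 h, adjusted p = 1.56e-05) and Fosb (1.27 ± 0.38 (SE, adjusted p = 0.00976)) rose from 16 to 96 h, while Fos (0.48 ± 0.41 (SE, adjusted p = 0.331)) and Egr1 (0.45 ± 0.59 (SE, adjusted p = 0.523)) were not called.

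Genes known to respond to low oxygen differed in their 72 h libraries. Ndrg1, a stress-responsive gene, was at 14, 15.9 and 17.1 TPM at 48 h, 92, 91 and 6.78 at 72 h, 5.17, 6.4 and 12.2 at 96 h, 53, 82.7 and 18.6 at 168 h and 6.03 and 7.61 in XEN cells. Egln3, an oxygen-sensing prolyl hydroxylase, was at 20.7, 22.2 and 9.92 TPM at 0 h, 26.6, 26.6 and 2.65 at 72 h, 6.99, 8.02 and 6.19 at 96 h, 96.5, 120.0 and 65.7 at 168 h and 14.6 and 13 in XEN cells. In these genes 72 h replicate 3 read at a small part of replicates 1 and 2. Vegfa, the endothelial growth factor, read 143, 145 and 91.9 TPM at 72 h, lower in replicate 3 by a smaller ratio, and Adm read 2.14, 1.77 and 1.56 TPM, with no such gap. Adm, encoding the vasodilator peptide adrenomedullin, averaged 1.2 TPM at 96 h and stood at 17.7, 24.6 and 6.97 TPM at 168 h. Vegfa rose by 1.31 ± 0.15 (SE, adjusted p = 4.60e-06) from 16 to 96 h and was the only 1 of these 4 to be called. It stood at 182, 225 and 212 TPM at 168 h and 32.9 and 33.4 in XEN cells.

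Some members gained most of their level after 96 h. At 96 h, 17 of 89 members had reached less than 25% of their 168 h mean, against 88 of the 974 shared induced genes (19.1% and 9.03%). Cck, a peptide hormone gene, averaged 1.91% at 96 h, and its 168 h libraries read 28.7, 55.8 and 155 TPM, replicate 3 standing highest. Trpc5os was at 3.34%, Ttr at 4.48%, Gm42208 at 6.73% and Adm at 7.28%. Ttr, the carrier of thyroid hormone and of the retinol-binding protein, was at 1.38, 1.92 and 1.13 TPM at 96 h, 52.4, 44.1 and 2.31 at 168 h and 7.02 and 7.1 in XEN cells. Its membership thus rested on replicates 1 and 2. Slco2a1, the prostaglandin transporter, was more even, at 14.4, 14.7 and 14.2 TPM at 96 h, 129.9, 172 and 141 at 168 h and 2.31 and 2.5 in XEN cells. At the other end the 96 h mean exceeded the 168 h mean most in Fam151a (251% of it), Amn (241%), the carbonic anhydrases Car2 (234%) and Car4 (232%) and the epithelial transcription factor Elf3 (225%).

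Other members with high ratios to XEN had varied roles. Fmr1nb, an X-linked gene next to Fmr1, had the highest ratio, and read 28, 26.9 and 34.1 TPM at 0 h, 90.5, 94.4 and 106 at 48 h, 142, 131 and 138 at 168 h and 0 and 0.101 in XEN cells. It was therefore expressed in ES cells and raised further by 168 h. Tnk1, a non-receptor tyrosine kinase, was at 67.4, 101 and 67.9 TPM at 168 h and 0.324 and 0.111 in XEN cells. Nostrin, which binds endothelial nitric oxide synthase, was at 0, 0.0102 and 0 TPM at 0 h, 77.6, 85.7 and 85.7 at 48 h, 138, 141 and 177 at 96 h, 62.5, 67 and 74 at 168 h and 0.506 and 0.415 in XEN cells. Plbd1 (ratio 36.1), Cck (29.7), Elf3 (26.7) and the homeodomain-only protein Hopx (26.2) completed the 10 members with the highest ratios to XEN, with Fmr1nb (131), Htra1 (98.6), Amn (96.6), Tnk1 (65.4), Nostrin (47.1) and Slco2a1 (43.7).

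Of the genes of lipid and sterol metabolism, Insig1 and Me1 were also expressed in XEN cells, while Gpat3, an enzyme of lipid synthesis, was under 1 TPM there. Gpat3 read 16.6, 17.2 and 18 TPM at 96 h, 9.06, 14 and 14.3 at 168 h and 0.495 and 0.496 in XEN cells. Insig1, which holds the sterol sensor complex in the endoplasmic reticulum, was at 45.3 ± 3.63 TPM (SD, n = 3) at 0 h, 102 ± 4.77 TPM (SD, n = 3) at 96 h, 429 ± 98.1 TPM (SD, n = 3) at 168 h and 65.1 ± 0.316 TPM (SD, n = 2) in XEN cells. Me1, the cytosolic malic enzyme, reached 266 ± 17.9 TPM (SD, n = 3) at 168 h against 46.4 ± 1.15 TPM (SD, n = 2) in XEN cells. Atp6v0a1, a subunit of the proton pump that acidifies lysosomes, Ctns, the lysosomal cystine exporter, Hexa, a hexosaminidase subunit, and Npl, which breaks down sialic acid, all rose between 16 and 96 h. So did 71 of the 88 members tested and 13.7% of all genes tested. Npl was at 387, 416 and 139.8 TPM at 72 h, 107, 103 and 59.7 at 168 h and 20 and 19 in XEN cells. Tfpi, which inhibits tissue factor, was the third most abundant member, at 66.4 ± 3.58 TPM (SD, n = 3) at 0 h, 973 ± 9.29 TPM (SD, n = 3) at 168 h and 199 ± 7.28 TPM (SD, n = 2) in XEN cells. F2r, the thrombin receptor, was at 181 ± 9.84 TPM (SD, n = 3) at 168 h and 13.6 ± 1.22 TPM (SD, n = 2) in XEN cells.

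Among secreted signals, Wnt11 was at 29.1, 30.1 and 19.1 TPM at 96 h, 158, 165 and 59.8 at 168 h and 22.2 and 22.1 in XEN cells. Ihh, the hedgehog ligand of visceral endoderm, was at 36.4, 39.4 and 12.6 TPM at 72 h, 28.4, 28.5 and 14.1 at 168 h and 4.19 and 4.92 in XEN cells. Igf2, an imprinted growth factor, was at 6.44, 5.63 and 13.6 TPM at 0 h, 263, 251 and 95.9 at 72 h, 101, 91.8 and 71.8 at 168 h and 10.3 and 9.56 in XEN cells. Ihh and Igf2 peaked at 72 h and Wnt11 at 168 h. Of the 8 secreted factors grouped here (with Gas6, Fgf10, Ntn3, Cck and Cxcl16), all but Cck rose between 16 and 96 h, a share near that of all members. S100g, the vitamin D dependent calcium-binding protein of absorptive epithelia, was at 0 TPM in each 0 h and 16 h library, 10.3, 13.6 and 15.6 TPM at 48 h, 89.3, 78.3 and 57.1 at 96 h, 109, 90.9 and 214 at 168 h and 19 and 20.2 in XEN cells.

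When the members rose was tested on the 15 libraries of 16 to 96 h, which the rule did not use. Because members had to rise between 0 and 168 h, a rise in between was favoured by how they were chosen, and the counts bear mainly on timing. The noncoding RNA Gm42208 was below the filter of a 1 TPM group mean, so 88 were tested. From 16 to 96 h 71 of 88 members rose, against 13.7% of the 14211 genes tested, and 0 fell, against 13.2% (limma, with 1 member lower at an unadjusted p under 0.05). All 71 had 96 h libraries above the 16 h libraries without overlap, a trait that the call on these same libraries favours. It was not counted over all genes. The largest rises were Cubn, S100g (6.22 ± 0.35 (SE, adjusted p = 3.63e-09)), the hyaluronan-binding protease Habp2 (5.39 ± 0.24 (SE, adjusted p = 5.03e-10)), Islr2 (5.28 ± 0.16 (SE, adjusted p = 3.25e-11)) and Nostrin (5.27 ± 0.19 (SE, adjusted p = 8.52e-11)). In shared induced genes the rise was called more often, in 864 of 972 (88.9%) against 80.7% of members, and 1 fell. The median change was 2.17 on the log2 scale in members, 1.84 in shared induced genes and -0.01 over all genes tested.

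Among the steps between 16 and 96 h, the largest number of members was called higher from 24 to 48 h, followed by 48 to 72 h. Both steps also led, in this order, over all genes tested and in shared induced genes, so the order is not particular to the members. The step from 16 to 24 h was shorter than the others, and the counts were not adjusted for that. The intervals from 0 to 16 h and from 96 to 168 h were not tested, and at 96 h the median member stood at 56.9% of its 168 h level. From 16 to 24 h 8 of 88 members rose (0.239% of all genes tested) and 0 fell (0.113%, 0 at an unadjusted p under 0.05). The 8 were Cubn, Car2, Nostrin, Amn, Slc44a3, Col4a1, Car4 and Col4a2, with changes of 2.04 for Cubn at the top and 1.11 for Col4a2 at the bottom. From 24 to 48 h 51 members rose (3.3%) and 0 fell (2.53%, 1 unadjusted), led by Cubn (4.97 ± 0.27 (SE, adjusted p = 1.94e-07)), Habp2 (3.92 ± 0.24 (SE, adjusted p = 3.95e-07)) and S100g (3.20 ± 0.35 (SE, adjusted p = 1.89e-05)). From 48 to 72 h 31 rose (2.08%) and 0 fell (1.43%, 1 unadjusted), led by Loxl2 (2.82 ± 0.51 (SE, adjusted p = 0.0015)), Islr2 (2.66 ± 0.16 (SE, adjusted p = 1.36e-06)) and the protease-like Prss35 (2.18 ± 0.24 (SE, adjusted p = 4.89e-05)), and 4 of the 31 overlapped between groups. From 72 to 96 h 2 rose (0.704%), Gas6 (1.09 ± 0.23 (SE, adjusted p = 0.0101)) and Slco2a1 (1.32 ± 0.16 (SE, adjusted p = 0.000565)), and 2 fell (0.964%), Cyp2s1 (-1.18 ± 0.14 (SE, adjusted p = 0.000548)) and Ndrg1 (-2.26 ± 0.70 (SE, adjusted p = 0.0491)). The call for Ndrg1 was lost on leaving out any 1 of these 6 libraries other than 72 h replicate 3, and that for Gas6 without 72 h replicate 1 or 2. Without 72 h replicate 3 that last comparison had 18 members lower and 2 higher, and from 48 to 72 h 44 rose. In the shared induced genes, of which 972 were tested, 20, 248, 186 and 57 rose at these steps, that is 2.06%, 25.5%, 19.1% and 5.86%, where the members gave 9.09%, 58.0%, 35.2% and 2.27%. No difference between the sets was tested. Over the 4 steps 28 members, the untested Gm42208 included, had no call, Ndrg1 only fell, Cyp2s1 rose once and fell once, 29 others rose once, 28 rose at 2 steps and 2 rose at 3 steps.

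Many members had passed their highest level before 168 h. The highest group mean was at 168 h in 54 members, at 96 h in 9, at 72 h in 24 and at 48 h in 2, so that 35 (39.3%) peaked earlier. In shared induced genes 119 of 974 (12.2%) did so. Some peaks at 72 h rested on replicates 1 and 2 alone. In Hopx, Col11a1 and Ndrg1, 72 h replicate 3 lay below each 168 h library, and all 168 h libraries lay above all 96 h libraries. In others, such as Amn, the 72 h libraries were alike. All 168 h libraries lay below all 96 h libraries in 16 members (17.98%) and in 50 shared genes (5.13%). At 96 h, 47 members already met the 4-fold ratio to XEN. These figures rest partly on the 168 h libraries that chose the members and carry no test.

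Replicate 3 at 72 h stood apart in the members. It was below both other 72 h libraries in 71 of 89 members (79.8%) and in 644 of 974 shared induced genes (66.1%). It was under 50% of both in 38 members (42.7%) and in 113 shared induced genes (11.6%). The median of replicate 3 minus the mean of replicates 1 and 2 was -0.63 on the log2 scale at 72 h in members and -0.26 in shared genes, and in members between -0.08 and 0.14 at the other times. Among the lowest were Selenop, the selenium carrier (30.6, 27.1 and 1.38 TPM in replicates 1, 2 and 3), Ndrg1, Egln3, Loxl2, Vldlr, Clic6 (20.3, 22.4 and 3.91 TPM) and Insig1 (155, 162 and 47.4 TPM). Members that did not move with them included Amn (339, 348 and 336 TPM), Nostrin (142, 148 and 159.8 TPM), Htra1 (423, 450.3 and 450.4 TPM) and Lrp2 (288, 291 and 317 TPM). Gata6 itself was at 188, 201 and 196 TPM in these libraries and Pou5f1 at 867, 935 and 873 TPM, while the fibroblast sum was 104, 124 and 264 TPM. The part of feeder RNA in this library's difference was not tested. At 168 h, replicate 3 was under 50% of both others in 9 members, including Amn, Ttr, Wnt11 and Ihh, and more than double both in 3, Cck, Gm42208 and the citrate transporter Slc13a5 (18.5, 21.1 and 58.1 TPM). Pou5f1 was at 39.1, 39.1 and 112 TPM in these libraries, so that replicate 3 was also highest in this ES cell gene, as in the fibroblast sum. The part of either in these differences was not tested.

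**Figure D3:**
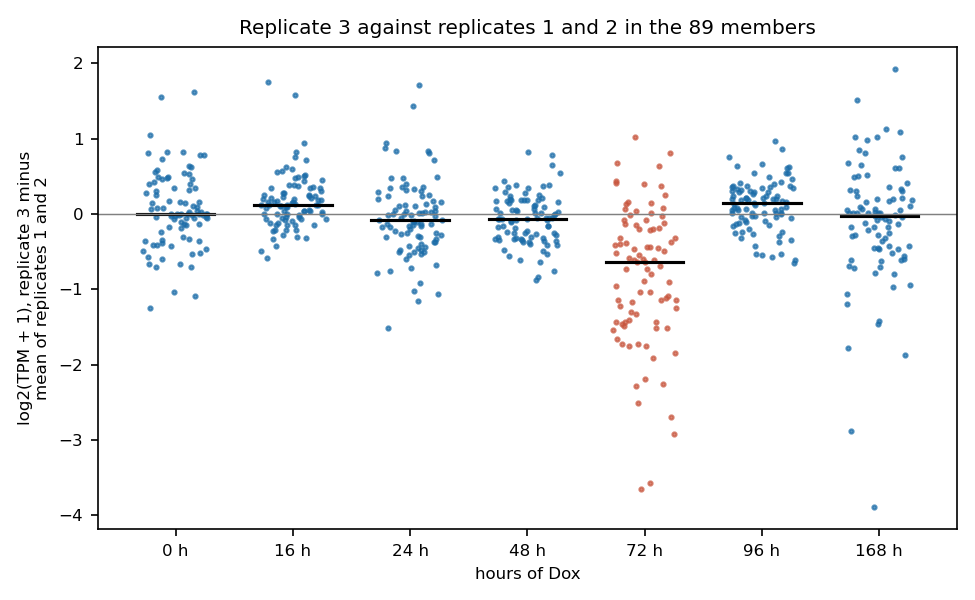
Difference on the log2(TPM + 1) scale between replicate 3 and the mean of replicates 1 and 2 for each of the 89 members (points, spread sideways at random) at each time of Dox, with a black bar at the median. At 72 h (red) the median was -0.63 and most points lay below 0, while at the other times medians lay between -0.08 and 0.14.

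Dependence on Oct4 was examined at 48 h of Dox, in libraries that the rule did not use. Of the 89 members, 85 were listed in the table (Fndc1, Gm42208, Trpc5os and Ttr were not), and 18 of 85 were lower with siOct4 (1.72% of the 6264 genes tested) and 1 was higher (0.942%). On leaving out 1 replicate number, 8 were lower without number 1, 11 without 2, 8 without 5 and 6 without 6, and with consecutive libraries averaged 0 were (limma, 29 lower at an unadjusted p under 0.05). With same-numbered siCTL and siOct4 libraries treated as pairs (the replicate block), 30 members were lower (6.15% of all genes) and 2 higher (2.43%). In shared induced genes 19 of 959 were lower and 22 higher, and 82 and 51 with the block. The table holds genes that the authors selected as responsive to GATA6, so its background is not that of all genes. The 18 members had changes from -2.55 to -0.53 with a median of -1.19. Of the 85 members, 39 were lower in 6 of 6 pairs, all 18 included. In 13 of the 18 the 6 siOct4 libraries lay below the 6 siCTL libraries without overlap. The call on these same libraries favours both traits, and neither was counted over all genes. Since some consecutive libraries were much alike, the 6 pairs may not count as 6 independent ones, with or without the block. The median change over all genes tested was -0.12. Median-of-ratios rescaling moved it to 0.01, and with it 17 members were lower and 3 higher, while the share over all genes was 2.45% lower and 2.3% higher.

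The cubilin receptor pair was among the genes that fell. Cubn had a lowest, median and highest value of 122, 337 and 649.8 TPM with siCTL and 18.2, 56.3 and 126 TPM with siOct4, a change of -2.55 ± 0.46 (SE, adjusted p = 0.00641). The groups overlapped slightly, since the lowest siCTL library was below the highest siOct4 library. Amn read 16.1, 32.1 and 58.4 TPM with siCTL and 6.09, 11.3 and 15.1 TPM with siOct4, with no overlap and a change of -1.43 ± 0.30 (SE, adjusted p = 0.0197). Lrp2 was at 107, 184 and 536 TPM and 56.7, 158 and 200.4 TPM, and its change of -0.71 ± 0.37 (SE, adjusted p = 0.429) was not called, with or without the block. Nostrin fell from 78.4, 125 and 195 TPM to 14.9, 29.4 and 49.3 TPM, a change of -2.11 ± 0.32 (SE, adjusted p = 0.00192). Creb3l1, a membrane-bound transcription factor of the secretory pathway, changed by -1.75 ± 0.31 (SE, adjusted p = 0.00503) and Slc44a3, a choline transporter-like protein, by -1.44 ± 0.23 (SE, adjusted p = 0.00271). These 5 had the largest changes of the members called lower without the block. Amn was not called on leaving out replicate number 5 (adjusted p = 0.0737) or 6 (adjusted p = 0.0842), whereas the other 4 stayed called on leaving out any 1 number.

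The other members that fell had varied roles, and 8 of the 18 called lower were in no role group. F2r changed by -1.35 (adjusted p = 0.0024), Htra1 by -1.29 (adjusted p = 0.00169), the lipid synthesis enzyme Gpat3 by -1.29 (adjusted p = 0.0321) and the neurofilament gene Nefl by -1.21 (adjusted p = 0.0115). Habp2 (-1.18 (adjusted p = 0.0361)), the blood transcription factor Runx1 (-1.15 (adjusted p = 0.0335)), Fam151a (-1.15 (adjusted p = 0.0139)), Hopx (-1.05 (adjusted p = 0.0113)) and Ccser1 (-1.04 (adjusted p = 0.0141)) followed. The adhesion molecule Esam (-1.03 (adjusted p = 0.0437)), Hexa (-1.01 (adjusted p = 0.0111)), Armh4 (-0.88 (adjusted p = 0.00765)) and the phosphoglucomutase Pgm2 (-0.53 (adjusted p = 0.0486)) completed the 18. Of the 18, 6 (Cubn, Nostrin, Creb3l1, Slc44a3, F2r and Htra1) stayed called on leaving out any 1 replicate number and 12 did not. Only with the block did a further 12 pass, among them Iqgap2 (-1.50 ± 0.22 (SE, adjusted p = 0.00196)), Egr1 (-1.37 ± 0.33 (SE, adjusted p = 0.0276)), Elf3 (-0.90 ± 0.14 (SE, adjusted p = 0.00218)) and Car2 (-0.55 ± 0.09 (SE, adjusted p = 0.0043)). Of these 12, 11 were lower in 6 of 6 pairs, which the block call favours and which was not counted over all genes. F2r and Iqgap2 are neighbours on chromosome 13, with 8689 bases between them.

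S100g moved the other way. It was at 4.06, 7.37 and 23.7 TPM (lowest, median, highest) with siCTL and 44.8, 67.1 and 209 TPM with siOct4, with no overlap, and rose by 3.15 ± 0.42 (SE, adjusted p = 0.00151) in 6 of 6 pairs. Igf2 was at 42.2, 79.6 and 104 TPM and 95.3, 157 and 369 TPM and higher in 6 of 6 pairs. Its change of 1.26 ± 0.33 (SE, adjusted p = 0.0626) was not called without the block and was called with it (1.26 ± 0.16 (SE, adjusted p = 0.000901)). Ndrg1 was also higher in 6 of 6 pairs, by 0.47 ± 0.12 (SE, adjusted p = 0.0385) with the block, which is under the fold minimum. The type IV collagens did not pass either test, at -0.02 ± 0.28 (SE, adjusted p = 0.984) for Col4a1 and -0.11 ± 0.25 (SE, adjusted p = 0.902) for Col4a2, with libraries that spanned 569 to 1864 TPM of Col4a1 in siCTL.

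**Figure D4:**
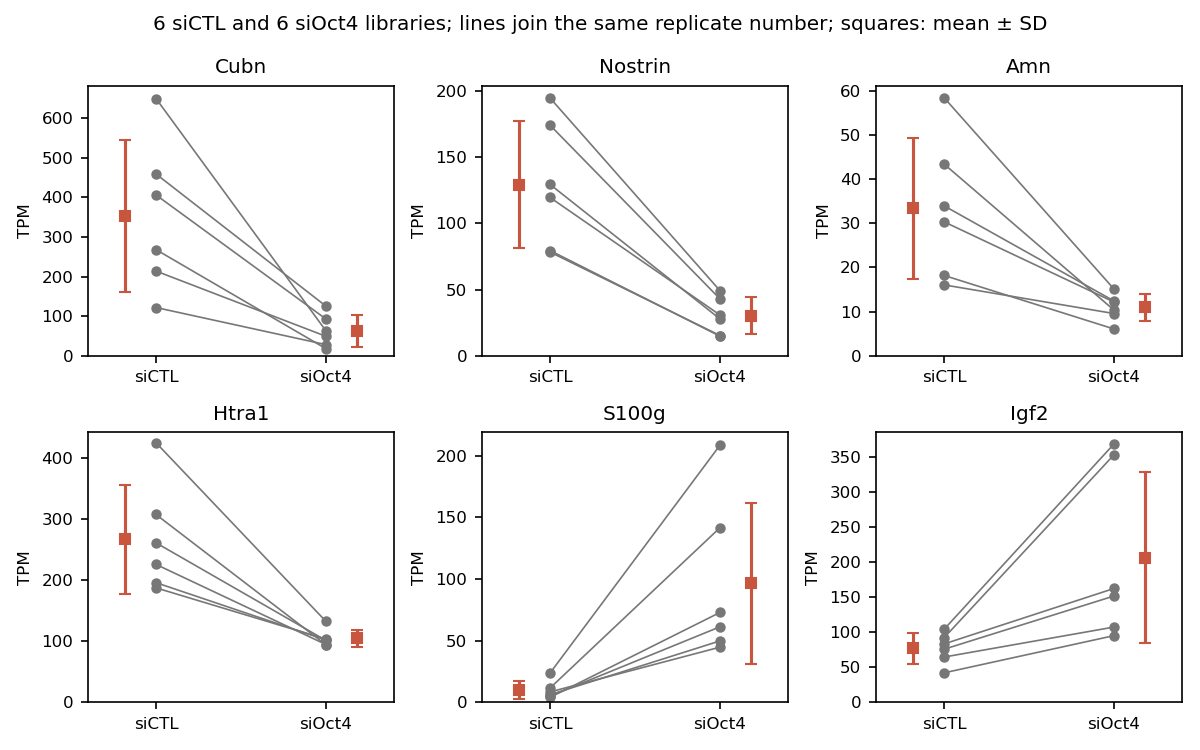
TPM of 6 named members in the 6 siCTL and 6 siOct4 libraries, with grey lines joining libraries of the same number and red squares giving mean ± SD (n = 6). Cubn, Nostrin, Amn and Htra1 were lower and S100g and Igf2 higher with siOct4 in 6 of 6 pairs.

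The members that fell with siOct4 were mostly those whose level peaked before 168 h. Of the 35 members with an earlier peak, 16 were lower (45.7%), and of the 50 listed members with a peak at 168 h, 2 were (4%), Creb3l1 and Esam. With the block the counts were 23 and 7. The median change was -0.82 in the first set and -0.16 in the second. In shared induced genes 14 of 119 with an earlier peak were lower (11.8%) and 5 of 840 with a peak at 168 h (0.595%), and with the block 39 and 43. Level moved with this split, the median siCTL mean being 45.0 TPM in early-peaking members against 10.1 TPM in the others, and 37.2 against 20.4 TPM in shared genes. The part of level in the counts was not tested, and peak time was read from libraries that chose the members. Some peaks at 72 h also rested on replicates 1 and 2 alone.

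**Figure D5:**
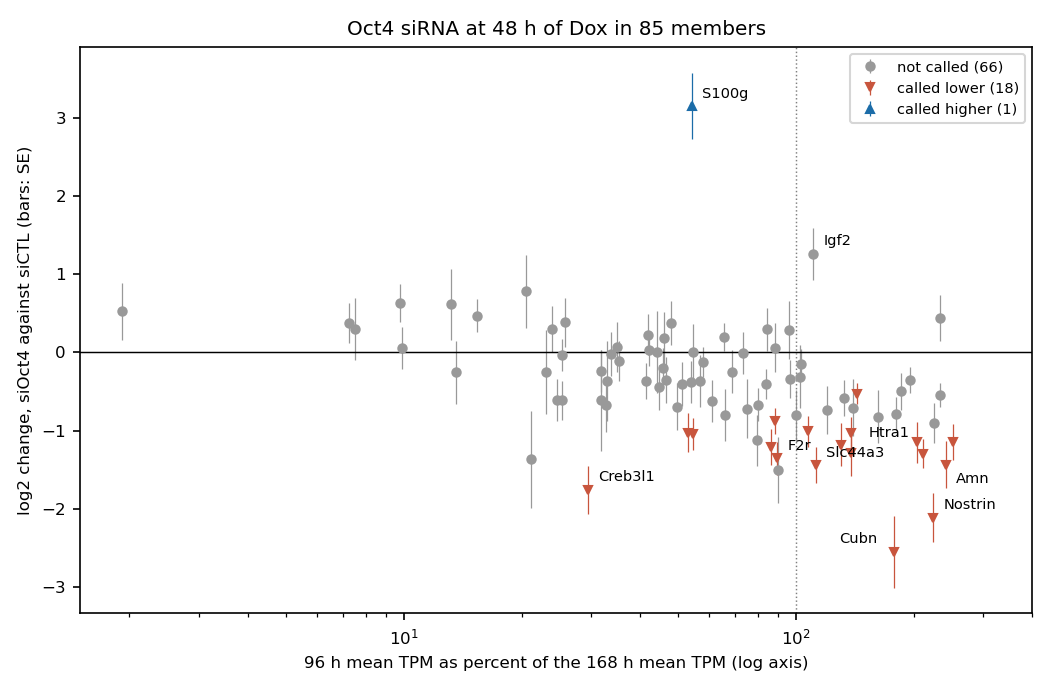
Change with siOct4 against siCTL at 48 h of Dox (log2 scale, bars SE) of the 85 listed members, plotted against the 96 h mean TPM as a percent of the 168 h mean (log axis, dotted line at equality). Red triangles mark the 18 members called lower, the blue triangle S100g, called higher, and grey circles the rest, and most red points lie towards the right, among members already near or past their 168 h level at 96 h.

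In the genome the members were scattered. They lay on every autosome and on chromosome X, with 11 on chromosome 11 (12.4%, against 7.81% of genes that reached a group mean of 1 TPM), 8 on chromosome 9 (8.99% against 5.64%) and 5 on chromosome X (5.62% against 3.63%). Among the members, 5 pairs lay within 200 kb of each other, namely F2r and Iqgap2, Clic6 and Runx1 (60222 bases apart), Hpse and Gpat3 (125996), Me1 and Prss35 (47695) and the overlapping Col4a1 and Col4a2. The members nearest the threshold on the XEN ratio were Efna3 (4.06), Runx1 (4.14) and Gm42208 (4.14) inside it and Cacna1d (3.93), Mbnl2 (3.93) and Ier3 (3.90) outside. On the 168 h level Ccser1 (10.4 TPM), Slc43a3 (10.4 TPM) and Camk2n1 (11.6 TPM) were inside and Rpl7a-ps11 (9.52 TPM), Stk32c (9.22 TPM) and Cyp27a1 (9.18 TPM) outside. On the 0 h ratio 2210409E12Rik (4.01), Hexa (4.04) and Gpc3 (4.25) were inside and Tspan5 (3.72), Nmb (3.57) and Arrdc4 (3.55) outside.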

How the data were processed

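RNA was measured in 35 libraries, 23 of the induction series and 12 of the siRNA series. Stranded reads were mapped by the authors with STAR (mm10) and turned by RSEM into the deposited TPM, a unit that keeps no read number, so depth is unknown and the spread between samples is the only error used. The paper calls the replicates of the induction series independent and gives 6 independent experiments for the siRNA series, without saying what the replicates shared. The siRNA table holds 6275 genes the authors selected as responsive to GATA6. The authors' group means and text classes of response in it were not used.

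The unit became clear once the tests were already set. Since it was TPM, limma 3.58.1 (R 4.3.3; lmFit, eBayes with trend and robust options) was used on log2(TPM + 1), which understates changes of low genes. Genes with a group mean of at least 1 TPM were tested, with Benjamini-Hochberg adjustment over all of them. Calls needed an adjusted p under 0.05 and an absolute log2 change above 1 (induction, 15 libraries of 16 to 96 h in 1 fit) or above 0.5 (siRNA). The fits were also run on simulated data in which all libraries were independent. That run cannot tell how likeness between some replicates affects the calls. Of rows that shared a symbol (60 symbols), only the highest in mean was retained. Positions came from GENCODE M21 and promoters from RefSeq. Python 3.11.15, numpy 2.4.6 and pandas 2.3.3 were used.

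The members and lists were chosen with earlier results of these data known. Named members were the 12 highest at 168 h, the 10 with the largest ratio to XEN, those in a marker list, the 5 largest called rises and falls per test, the 5 highest and lowest 96 h shares, neighbours within 200 kb and the 3 genes on each side of a threshold. Others named to fill role groups, or to describe 72 h replicate 3 or the siRNA calls, were chosen after their values were seen. Deviations from the group means correlated at 0.236 to 0.707 in every same-numbered siRNA pair, so those numbers were taken to pair the samples, although only 7 of 12 libraries correlated best with their own number and differently numbered pairs reached 0.459. In the induction series the mean correlation was 0.02, and the numbers were not taken as pairs.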

Additional observations from a re-analysis of the deposited data

Results flagged for a closer look

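Highest and lowest siRNA libraries were screened for distance from their group in 14 named members, that is 28 groups of 6, where chance alone would be expected to mark 1.4. In siCTL replicate 4, Col4a2 was at 10.06 on the log2(TPM + 1) scale, above the other 5 libraries at 8.47 to 9.02. In siCTL replicate 3, Vegfa was at 4.74, below the others at 5.87 to 6.14. No cause was tested for either.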

How the results depend on the processing

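The number of members was 153 with a ratio of at least 3 and 23 with at least 8, and between 74 and 105 under the other choices of pseudocount, rescaling and level and without any single library. From 16 to 96 h the higher count stayed within 69 to 77, and 1 member was lower with a pseudocount of 0.1 and 1 with no fold change minimum. From 16 to 24 h 14 members were higher with a pseudocount of 0.1, 15 with no fold change minimum and 0 with replicates 1 and 2 averaged (limma, 20 at an unadjusted p under 0.05). From 24 to 48 h the higher count stayed within 44 to 66. From 48 to 72 h 18 were higher with only the compared groups in the fit, 52 with no fold change minimum and 15 with replicates 1 and 2 averaged. From 72 to 96 h the counts were unstable. Higher and lower counts were 0 and 0 with only the compared groups (limma, 17 and 4 at an unadjusted p under 0.05) and with replicates averaged (12 and 3), 11 and 4 with no fold change minimum and 1 and 1 at an adjusted p under 0.01, and the lower count was 1 with no filter on low values and 1 with the replicate block. Leaving out 1 library gave 1 to 2 higher and 1 to 18 lower, the 18 being without 72 h replicate 3. Averaging replicates, and averaging consecutive siRNA libraries, were chosen after seeing the data.

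For siOct4 the replicate block gave 2 higher and 30 lower, median-of-ratios rescaling 3 higher, and both together 4 higher. At an adjusted p under 0.01, 7 were lower. Leaving out 1 replicate number gave 1 to 2 higher and 6 to 19 lower, with 8 lower without replicate 1, 11 without 2, 8 without 5 and 6 without 6. With consecutive libraries averaged 0 were higher and 0 lower (limma, 2 and 29 at an unadjusted p under 0.05), and with the block added 2 were higher and 18 lower. In the averaged fit without the block no gene of the table was called, and Cubn, Nostrin, Creb3l1, Slc44a3, Amn and S100g kept their direction. Amn also missed the threshold without replicates 5 and 6 in turn. The cause was not tested. Of 60 printed changes recomputed under the alternatives, 58 kept their sign throughout. The exceptions were Col4a1 and Col4a2 with siOct4, neither of them called, at 0.13 and 0.045 with median-of-ratios rescaling, with or without the block, and at -0.13 to 0.12 and -0.22 to 0.044 on leaving out 1 replicate number, Col4a1 being above 0 without number 2 (0.10) and both without number 4. In the induction series the replicate block changed no other call count by over 1.5 times. Depth limits could not be set from TPM.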
